A study of Mus musculus with 12 samples.

Results

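The cullins, the substrate adaptors of 2 cullin ligases and the ubiquitin-conjugating enzymes were followed in the gastrocnemius, the large calf muscle, of mice. Members were all genes in the deposited TPM table whose symbol began with Cul, Klhl, Kbtbd or Asb and a number, or with Ube2 and a letter. The rule found 86 of the 10475 genes listed, made up of 7 cullins, 25 Klhl genes, 6 Kbtbd genes, 16 Asb genes and 32 Ube2 genes. The Klhl, Kbtbd and Asb genes known for their expression in striated muscle were described apart from the rest. These were 9 muscle-rich Klhl and Kbtbd genes (Klhl30, Klhl31, Klhl33, Klhl34, Klhl38, Klhl40, Klhl41, Kbtbd12 and Kbtbd13) and 9 muscle-rich Asb genes (Asb2, Asb5, Asb10, Asb11, Asb12, Asb14, Asb15, Asb16 and Asb18), against 22 other Klhl and Kbtbd genes and 7 other Asb genes.

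Cullins are the scaffolds of a large class of ubiquitin ligases, which mark proteins for breakdown by the proteasome or change their function. Cul3 binds Klhl and Kbtbd proteins through their BTB domain, and Cul5 binds Asb proteins through their SOCS box and the elongins, so that each adaptor brings its own substrates to the ligase. Ube2 enzymes are the E2 enzymes, which carry ubiquitin or a related modifier from an E1 enzyme to the ligase, and attachment of NEDD8 to the cullin switches the complex on. In striated muscle several of the adaptors control the stability of sarcomere and cytoskeleton proteins.

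Poly(A) RNA was sequenced from C57BL/6 mice aged 8 weeks, kept on chow in a light and dark cycle, which carried a liver-specific transgene for E4BP4 (TG) or did not (WT). E4BP4, the product of Nfil3, is a transcription repressor of the clock system. Muscle was taken at lights off (ZT12) or at lights on (ZT0), which gave 4 groups of 3 libraries: TG at ZT12, WT at ZT12, TG at ZT0 and WT at ZT0. Because the transgene is expressed in the liver, Nfil3 in the muscle did not check the genotype labels, and it averaged 13.5 ± 6.65 TPM in TG muscle and 11.8 ± 3.79 TPM in WT muscle at ZT12, and 16.0 ± 3.72 TPM in TG muscle and 17.2 ± 1.42 TPM in WT muscle at ZT0 (SD, n = 3 each). TPM is a level per transcript length and is the scale of every level given here.

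Depth differed with the time of day, and at ZT12 with the genotype too. Reads recovered from the TPM steps came to 13126338 to 15780301 per TG library and 17715524 to 20157288 per WT library at ZT12, against 10388093 to 11451642 per TG library and 9213368 to 13149140 per WT library at ZT0. All 8 myofibre markers were in the table and summed to 93634 to 115496 TPM per library, while none of the 5 lymphoid markers was listed. Every listed gene was at 1 TPM or more in WT ZT0 replicate 1, so the lack of lymphoid markers does not describe the other libraries. A pair of libraries stood apart. TG ZT12 replicate 1 had 75 of the 86 members below their own mean over the 12 libraries, with a median deviation of -0.30 on the log2 scale against -0.29 for all genes. WT ZT0 replicate 2 had median deviations of 0.18 for the members and 0.30 for all genes, and its median correlation with the other libraries was 0.945, against 0.975 to 0.985 elsewhere. TG ZT12 replicate 2 lay high, with a median deviation of 0.21 for the members and 0.13 for all genes and 10 of 86 members below their own mean, but its median correlation with the other libraries was 0.979. Where leaving out both TG ZT12 replicate 1 and WT ZT0 replicate 2 moved a difference named here for a member by over 1.5 times, the value without both is given.

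As a set the members listed lay above the typical listed gene in level. All genes listed were at 1 TPM or more in WT ZT0 replicate 1. Of 111 annotated symbols that match the rule, 25 were not listed and are left out of this comparison. Of the 86, 42 (48.8%) averaged over 10 TPM across the 12 libraries, against 3971 of all 10475 genes (37.9%), and the median member stood at 9.46 TPM against 6.59 TPM for all genes. The subgroups lay apart in level: the median was 55.5 TPM for the muscle-rich Asb genes, 26.5 TPM for the muscle-rich Klhl and Kbtbd genes, 20.3 TPM for the cullins and 11.7 TPM for the Ube2 genes. The other Klhl and Kbtbd genes and the other Asb genes were low, with medians of 4.16 and 3.95 TPM. Muscle-rich adaptors were assigned from what is known of the genes. Earlier results of these data were known by then, so the high level of these adaptors is no independent check of the assignment.

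Among the cullins, Cul3, the scaffold of the BTB adaptors, was the highest and made up 42.4% of the summed cullin level. It had 46.5, 83.5 and 74.1 TPM in TG muscle and 70.0, 68.3 and 62.1 TPM in WT muscle at ZT12, and 71.6, 67.3 and 58.5 TPM in TG muscle and 64.6, 71.8 and 68.0 TPM in WT muscle at ZT0. Its lowest library was TG ZT12 replicate 1 and its highest TG ZT12 replicate 2, so the widest spread was within a group. Cul3 was above the next cullin in every library, without overlap of their ranges. Cul4a, which works with the linker Ddb1, averaged 26.6 TPM, and Cul1, the scaffold of the F-box ligases, averaged 25.5 TPM. These neighbours overlapped, with Cul4a the higher in 9 of 12 libraries. Cul5, the scaffold of the Asb adaptors, averaged 20.3 TPM and Cul2, which uses the elongins too, 13.6 TPM. Cul9, a large atypical cullin, and Cul4b were low, at 2.92 and 2.58 TPM.

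Klhl41, an adaptor that stabilises nebulin and is mutated in human nemaline myopathy, was the leading BTB adaptor. It had 170.3, 241 and 212 TPM in TG muscle and 212, 199 and 203 TPM in WT muscle at ZT12, and 182, 194 and 189.9 TPM in TG muscle and 179, 190.0 and 200.5 TPM in WT muscle at ZT0. All 12 libraries lay above the highest library of the next member, Klhl31, and Klhl41 alone made up 47.5% of the summed level of the 9 muscle-rich Klhl and Kbtbd genes. Klhl31, which is needed for intact sarcomeres in mice, averaged 62.5 TPM and Klhl40, which stabilises nebulin and leiomodin-3 and is another nemaline myopathy gene, 54.9 TPM. With Klhl41 they made up 75.7% of the group. Klhl31 was above Klhl40 in 10 of 12 libraries, and Klhl40 above Klhl33 (45.9 TPM) in 7 of 12, with overlapping ranges both times. Klhl30 averaged 26.5 TPM, and below it, without overlap, came Kbtbd12 at 10.7 TPM. Kbtbd13, the remaining nemaline myopathy gene of the group, averaged 8.39 TPM, Klhl38 5.75 TPM and Klhl34 3.95 TPM. Exons of Klhl38 share 65.4% of their bases with another gene on the annotation, and the kit did not mark strand, so its value is uncertain. Smaller parts were shared with a gene on the opposite strand by Klhl40 (21.6%) and by the other adaptors Klhl21 (20.5%) and Klhl9 (15.8%). The same limit holds for these.

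Asb2, whose muscle form brings filamins and desmin to the Cul5 ligase, was the highest of all 86 members, with a mean of 292 TPM, and ranked 134th of the 10475 genes. It had 215, 374 and 350.0 TPM in TG muscle and 276, 291 and 269.8 TPM in WT muscle at ZT12, and 295, 302 and 289 TPM in TG muscle and 284, 293 and 263 TPM in WT muscle at ZT0. TG ZT12 held both its lowest and its highest library, while the other 9 libraries ran from 263 to 302 TPM. Asb5, at 141 TPM, lay below Asb2 in all 12 libraries, and both genes made up 62.9% of the summed level of the 9 muscle-rich Asb genes. Asb11 (61.1 TPM), which acts on Notch signalling in zebrafish, Asb10 (58.3 TPM) and Asb14 (55.5 TPM) came next and overlapped. Asb16 averaged 37.4 TPM, Asb12 21.2 TPM, Asb15, which affects protein turnover in cultured muscle cells, 15.4 TPM, and Asb18 6.02 TPM.

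**Figure D1:**
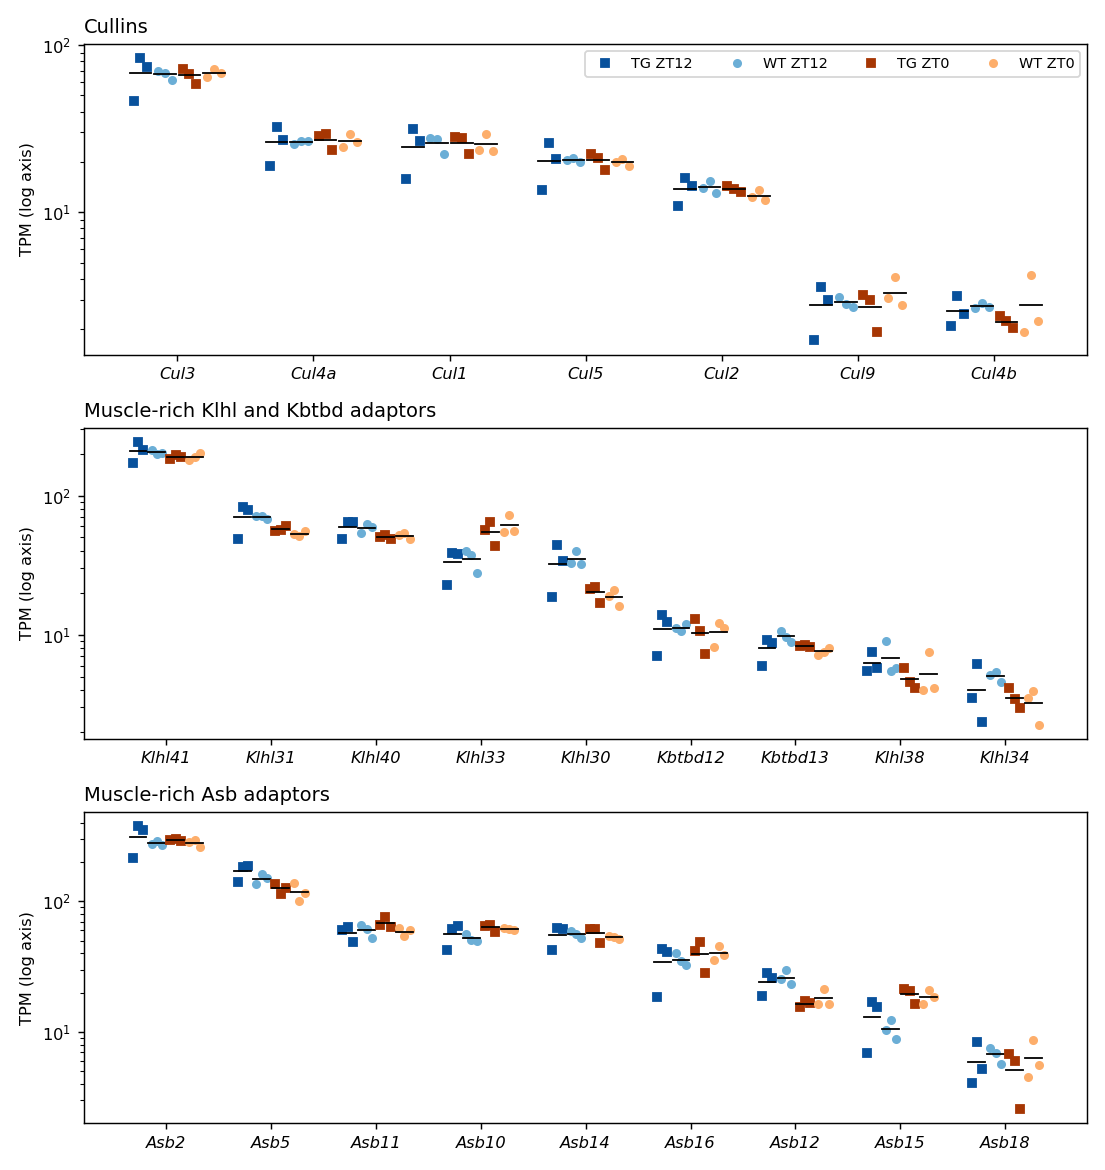
Levels of the 7 cullins, the 9 muscle-rich Klhl and Kbtbd genes and the 9 muscle-rich Asb genes, in TPM on a log axis. Each library is 1 point coloured by group, with a black line at the mean of each group. Cul3, Klhl41 and Asb2 lead their sets, at means of 67.2, 198 and 292 TPM over the 12 libraries.

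Outside the muscle-rich sets, few adaptors were high. Klhl21, a Cul3 adaptor of mitotic Aurora B in human cells, averaged 46.3 TPM, Klhl24, which controls keratin turnover in human skin, 20.9 TPM, and Klhl9, which works on Aurora B too, 14.3 TPM. Of the 22 other Klhl and Kbtbd genes, 5 averaged over 10 TPM. Asb8, at 50.5 TPM, made up 66.6% of the summed level of the 7 other Asb genes and was the only one of them over 10 TPM, followed by Asb13 at 8.55 TPM and Asb6 at 5.02 TPM.

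The E2 enzymes were led by Ube2b, a homologue of yeast Rad6 known for its induction in wasting muscle. It had 217, 243 and 208 TPM in TG muscle and 231, 226 and 214 TPM in WT muscle at ZT12, and 216, 209 and 218 TPM in TG muscle and 198, 183 and 214 TPM in WT muscle at ZT0. Ube2b was followed without overlap by Ube2d1 (152 TPM), an E2 that serves many RING ligases, and then, again without overlap, by Ube2m (81.6 TPM), the E2 that attaches NEDD8 to cullins. The 3 made up 46.5% of the summed Ube2 level. Ube2d3, a close relative of Ube2d1, averaged 77.1 TPM and overlapped with Ube2m. It was also the steadiest member, its highest library, 80.6 TPM, being 1.15 times its lowest, 70.1 TPM. Ube2r2, a Cdc34-type E2 of cullin ligases, averaged 61.3 TPM. At the low end Ube2v2, a partner of Ube2n in making lysine-63 chains, averaged 1.06 TPM. Near-identical relatives within the Ube2d and Ube2e families can share reads, and the 32 symbols include a pseudogene, Ube2d-ps, and Ube2cbp, which is a ligase rather than an E2.

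Promoters are shown for Klhl33, Asb12 and Asb15, whose time of day differences are described further on (of these Klhl33 alone passed the test), and for the leading adaptor Klhl41. They are RefSeq sequences of build GRCm38.p6, from 250 bases before to 50 bases after the RefSeq start, printed 5′ to 3′ on the gene's strand, with matches to the searched motifs in capitals. The motifs were searched on both strands and may overlap. They were CACGTG (E-box of the clock activators), TTANGTAA (D-box, the E4BP4 site), AGGTCA (site of nuclear receptors), CAGCTG (E-box of the myogenic factors) and a loose form of the MEF2 site, the site of a muscle transcription factor family. Positions are those of the motif's first base, counted from the start.
Klhl33 (chr14:50895303-50895602, minus strand, no match): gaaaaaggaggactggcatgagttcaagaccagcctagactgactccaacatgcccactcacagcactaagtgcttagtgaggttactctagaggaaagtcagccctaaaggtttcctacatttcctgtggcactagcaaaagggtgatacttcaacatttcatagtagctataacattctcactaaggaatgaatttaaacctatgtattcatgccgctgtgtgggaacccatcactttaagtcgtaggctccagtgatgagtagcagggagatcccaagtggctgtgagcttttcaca
Asb12 (chrX:95478080-95478379, minus strand, CTAAAAATAG at -48): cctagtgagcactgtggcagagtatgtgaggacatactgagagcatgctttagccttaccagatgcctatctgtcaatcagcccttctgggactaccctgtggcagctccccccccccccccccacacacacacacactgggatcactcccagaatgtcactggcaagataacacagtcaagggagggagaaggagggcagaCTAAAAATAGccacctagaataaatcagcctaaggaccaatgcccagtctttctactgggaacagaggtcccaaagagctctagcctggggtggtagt
Asb15 (chr6:24527894-24528193, plus strand, CACGTG at -200 and AGGTCA at -66): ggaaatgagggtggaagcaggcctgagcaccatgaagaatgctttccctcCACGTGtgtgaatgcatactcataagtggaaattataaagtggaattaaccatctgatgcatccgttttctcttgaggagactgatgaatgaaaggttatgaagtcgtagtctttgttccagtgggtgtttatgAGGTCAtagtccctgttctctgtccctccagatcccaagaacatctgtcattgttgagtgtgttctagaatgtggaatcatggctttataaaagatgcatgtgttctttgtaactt
Klhl41 (chr2:69669870-69670169, plus strand, CAGCTG at -127 and CTATATTTAG at -63): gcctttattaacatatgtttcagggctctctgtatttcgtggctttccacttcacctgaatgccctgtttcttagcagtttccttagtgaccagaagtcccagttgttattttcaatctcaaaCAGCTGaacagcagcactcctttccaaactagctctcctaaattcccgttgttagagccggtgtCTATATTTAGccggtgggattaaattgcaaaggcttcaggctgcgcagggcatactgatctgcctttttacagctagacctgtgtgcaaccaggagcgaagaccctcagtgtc
The RefSeq start of Klhl33 lies 2097 bases from that of the transcript whose length the authors used, so its window may not be the one in use. A promoter was held for 73 of the 86 members. The loose MEF2 site was in 8 of them (10.96%), against 3.70% of all 32544 promoters. It lay in Klhl41, Kbtbd12, Kbtbd13, Asb12, Asb16 and Asb18 of the muscle-rich adaptors, and in Asb1 and Ube2l3. CACGTG was in 8 (10.96%, against 7.17%), including Asb2 at -23 and Asb15. The D-box was in 2, Kbtbd7 and Klhl9 (2.74%, against 2.29%). AGGTCA was in 12 (16.4%, against 16.25%) and CAGCTG in 13 (17.8%, against 16.4%). A match describes the letters only.

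Time of day was the comparison in which a member passed the test. Over both genotypes, Klhl33 was lower at ZT12, and it was the 1 member called, where 0.883% of the 10415 genes tested were called (0.528% lower). Klhl33, a muscle-rich BTB adaptor whose substrates are little known, had 22.7, 38.8 and 37.9 TPM in TG muscle and 39.9, 37.3 and 27.8 TPM in WT muscle at ZT12, against 56.7, 64.4 and 43.1 TPM in TG muscle and 54.4, 72.4 and 56.0 TPM in WT muscle at ZT0. Every ZT12 library lay below every ZT0 library. The means were 34.0 ± 7.07 TPM at ZT12 and 57.8 ± 9.90 TPM at ZT0 (SD, n = 6 each), a difference of -0.76 on the log2(TPM + 1) scale (SE 0.16, 95% interval -1.10 to -0.41), with a Benjamini-Hochberg adjusted p of 0.0497 by limma. Within TG the difference was -0.73 (SE 0.22, limma adjusted p = 0.653), or -0.48 without both libraries that stood apart, and within WT it was -0.79 (SE 0.22, limma adjusted p = 0.358). The adjusted p stood at the threshold of 0.05. With single libraries left out it passed in 3 of 12 cases (TG ZT12 replicate 1, 0.0358; TG ZT12 replicate 2, 0.0480; TG ZT0 replicate 3, 0.0447) and reached up to 0.148 in the other 9. With depth as a covariate it was 0.239, where the difference was larger, at -1.23, and its SE was 0.38. The median of all genes also shifted there, to -0.38 from -0.03. With median-of-ratios scaling, which sets the libraries' typical gene level, the limma adjusted p of Klhl33 was 0.00373.

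In a bulk sample such as this, fewer cells of a type and less RNA per cell cannot be told apart. Time and depth cannot be told apart fully either, since the ZT12 libraries were mostly the deeper ones.

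Other adaptors had differences of like size without passing the threshold, and the largest higher at ZT12 was in Klhl30. Klhl30 had 18.6, 43.8 and 34.1 TPM in TG muscle and 33.0, 40.1 and 32.0 TPM in WT muscle at ZT12, against 21.3, 22.1 and 16.9 TPM in TG muscle and 18.9, 20.8 and 16.1 TPM in WT muscle at ZT0. TG ZT12 replicate 1 was within the ZT0 range, and the other 5 ZT12 libraries were above it. The difference was 0.73 (SE 0.17, limma adjusted p = 0.101), with means of 33.6 ± 8.66 TPM at ZT12 and 19.4 ± 2.45 TPM at ZT0 (SD, n = 6 each).

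Asb12 had 18.7, 28.1 and 25.8 TPM in TG muscle and 25.3, 29.9 and 23.1 TPM in WT muscle at ZT12, against 15.5, 17.2 and 16.6 TPM in TG muscle and 16.4, 21.3 and 16.5 TPM in WT muscle at ZT0. Only TG ZT12 replicate 1, at 18.7 TPM, and WT ZT0 replicate 2, at 21.3 TPM, made the times overlap. Its difference was 0.51 (SE 0.11, limma adjusted p = 0.0758). Klhl8, known in worms for controlling the synaptic protein rapsyn, had 12.8, 16.3 and 14.0 TPM in TG muscle and 15.1, 14.7 and 16.2 TPM in WT muscle at ZT12, against 11.4, 11.1 and 10.6 TPM in TG muscle and 11.4, 11.3 and 11.4 TPM in WT muscle at ZT0. The times did not overlap, and the difference was 0.38 (SE 0.08, limma adjusted p = 0.0588).

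Asb5 had 140.0, 184 and 188 TPM in TG muscle and 135, 161 and 151 TPM in WT muscle at ZT12, against 137, 113 and 127 TPM in TG muscle and 138, 101 and 116 TPM in WT muscle at ZT0. In WT the times overlapped through ZT12 replicate 1, and the difference over both genotypes was 0.38 (SE 0.10, limma adjusted p = 0.157). Asb15, picked after its values were seen, lay the other way, with 6.96, 17.0 and 15.5 TPM in TG muscle and 10.3, 12.3 and 8.81 TPM in WT muscle at ZT12, against 21.4, 20.4 and 16.4 TPM in TG muscle and 16.3, 20.8 and 18.4 TPM in WT muscle at ZT0. WT libraries did not overlap between the times, and TG libraries did, at 17.0 TPM at ZT12 and 16.4 TPM at ZT0. The difference over both genotypes was -0.69 (SE 0.18, limma adjusted p = 0.160).

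**Figure D2:**
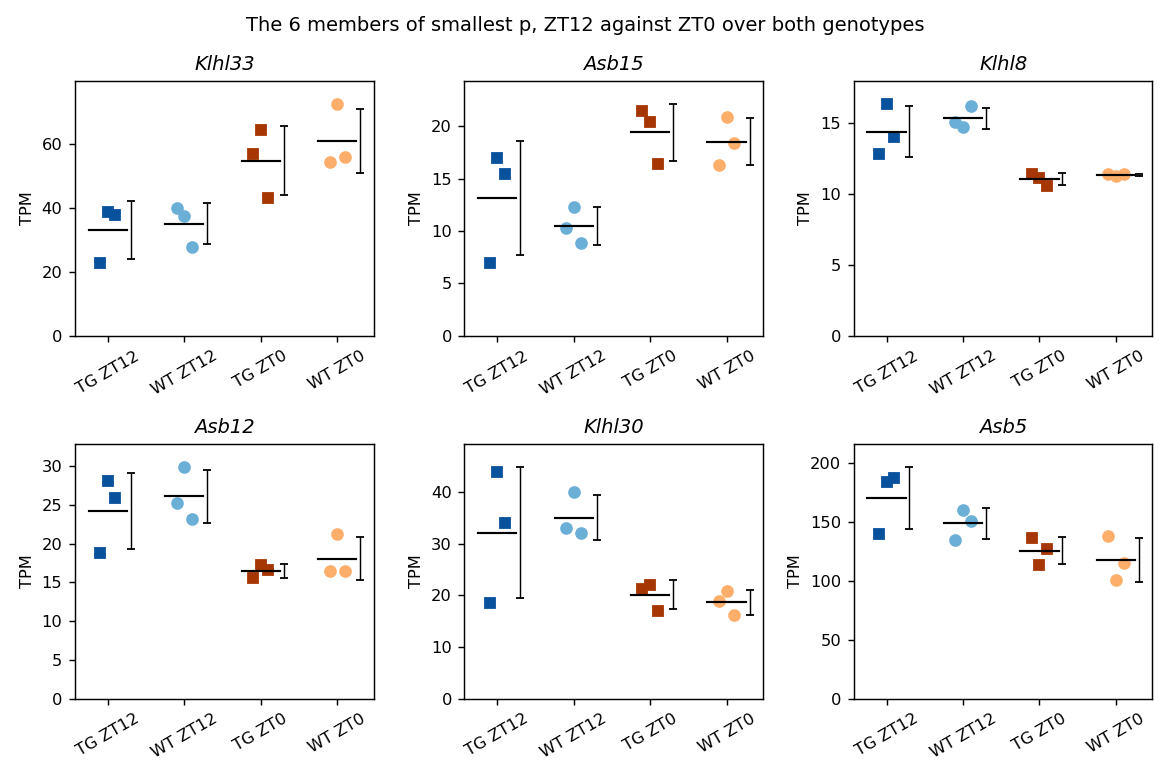
TPM of Klhl33, Asb15, Klhl8, Asb12, Klhl30 and Asb5 in each library, by group, with a line at the group mean and a bar of ± 1 SD (n = 3). Klhl33 and Asb15 averaged 34.0 and 11.8 TPM at ZT12, below 57.8 and 19.0 TPM at ZT0, and the other 4 genes were higher at ZT12 on average.

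By role, 8 of the 9 muscle-rich Klhl and Kbtbd genes had positive time differences over both genotypes, Klhl33 being the exception, and their median was 0.20, against 0.03 for all members and -0.03 for all genes. The count was again 8 with median-of-ratios or upper-quartile scaling, with limma-voom and without both libraries that stood apart. It was 3 of 9 with depth as a covariate, where their median turned to -0.19 and that of all genes was -0.38. Of all 10415 genes tested, 4225 were above 0 with the settings reported, and 5189, 5067 and 4278 with the 2 scalings and limma-voom. Without both libraries 7752 were, so 8 of 9 stands out less there, and the medians were 0.28 for these 9 genes and 0.09 for all genes. The 5 fibro-adipogenic markers, all in the table, summed to 462, 739.8 and 457 TPM in TG muscle and 614, 682 and 648 TPM in WT muscle at ZT12, against 463, 556 and 461 TPM in TG muscle and 485, 463 and 444 TPM in WT muscle at ZT0. The WT libraries were apart between the times in this sum and the TG libraries overlapped. Red cell markers were high in 4 of the 6 ZT12 libraries, as given with Ube2l6 further on, and the part of either cell type in these differences was not tested. Klhl31 was at 0.32 (SE 0.11), with 69.9 ± 11.7 TPM at ZT12 and 55.2 ± 3.33 TPM at ZT0, and Klhl40 at 0.20 (SE 0.08), with 58.9 ± 6.31 TPM at ZT12 and 50.9 ± 2.26 TPM at ZT0 (SD, n = 6 each). Their limma adjusted p-values were 0.435 and 0.629, and both were picked after their values were seen. Klhl41, the leading adaptor, was at 0.12 (SE 0.08), or 0.19 without both libraries that stood apart. The muscle-rich Asb genes had 5 of 9 above 0 and a median of 0.02, with Asb2 itself at 0.02 (SE 0.12). The cullins had a median of -0.01, and Cul3 and Cul5 were both at -0.01 (SE 0.13 for each). Without both libraries Asb2 was at 0.16, Cul3 at 0.13 and Cul5 at 0.12, where the median of all genes was 0.09.

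Among the E2 enzymes 22 of 32 had positive time differences, with a median of 0.04, and none passed the test. The count ran from 16 to 26 over the other scalings, limma-voom, the depth covariate and the left-out libraries. It was 26 without both libraries that stood apart, where 7752 of all 10415 genes were above 0. Ube2d1 had 165, 150.4 and 159.7 TPM in TG muscle and 177, 161 and 182 TPM in WT muscle at ZT12, against 142, 139 and 152 TPM in TG muscle and 136, 115 and 144 TPM in WT muscle at ZT0. Its WT libraries did not overlap between the times, and it differed by 0.27 over both genotypes (SE 0.07, limma adjusted p = 0.175), by 0.14 within TG and by 0.39 within WT. Ube2a, the other Rad6 homologue, picked after its values were seen, averaged 17.2 ± 0.559 TPM at ZT12 and 15.3 ± 0.603 TPM at ZT0 without overlap (SD, n = 6 each), a difference of 0.16 (SE 0.07, limma adjusted p = 0.629). Klhl13, a partner of Klhl9, had 1.32, 2.08 and 2.23 TPM in TG muscle and 2.44, 2.47 and 2.76 TPM in WT muscle at ZT12, against 1.93, 1.65 and 1.24 TPM in TG muscle and 1.05, 1.71 and 1.40 TPM in WT muscle at ZT0. Its difference of 0.36 (SE 0.13, limma adjusted p = 0.407) came with the times apart in WT and overlapping in TG.

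In counts, 13 of the 86 members had an unadjusted p under 0.05 over both genotypes, where 6.80% of all genes did. Groups did not overlap for 2 members higher at ZT12, Klhl8 and Ube2a (0.538% of all genes), and for 1 lower, Klhl33 (0.989%). Within TG no member was called (0.154% of all genes were), and within WT none was (0.115%), with 6 and 9 members at an unadjusted p under 0.05 by limma, where 3.53% and 4.65% of genes were. Within TG the times did not overlap for 5 members higher at ZT12 and 3 lower, where 3.21% and 3.87% of genes did not, and within WT for 13 higher and 5 lower, where 5.62% and 5.2% did not. By limma-voom on the recovered reads 5 members were called over both genotypes, where 1.86% of genes were.

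**Figure D3:**
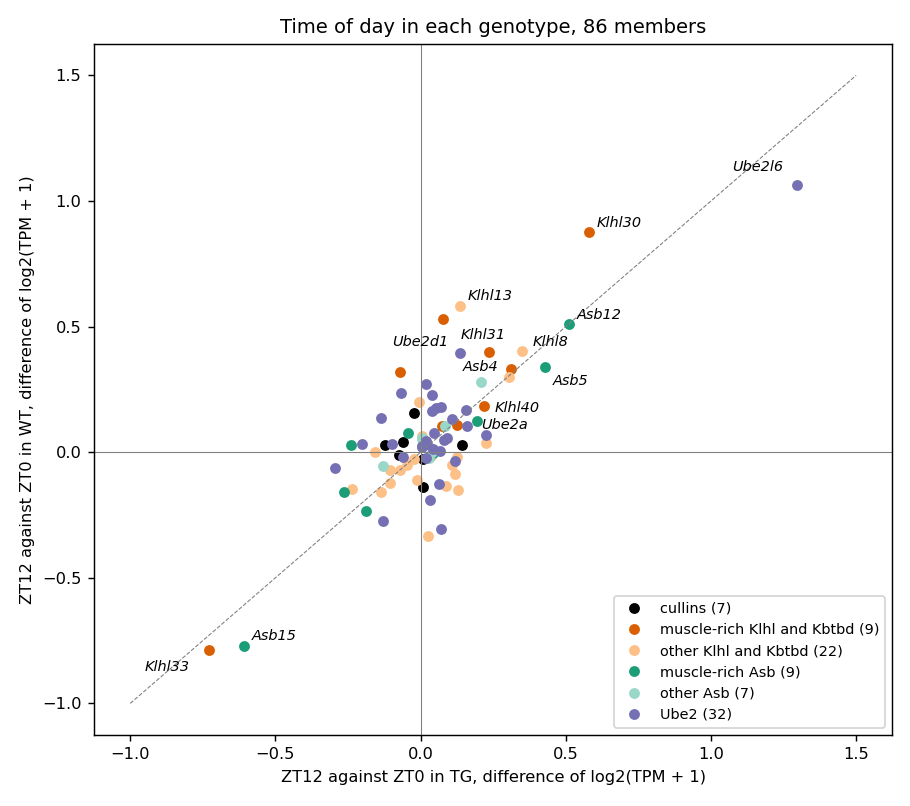
Time difference (ZT12 minus ZT0, log2(TPM + 1) scale) within TG on the horizontal axis and within WT on the vertical axis for the 86 members, with names for those of unadjusted p under 0.05 over both genotypes. Across the members Pearson's r was 0.79 and Spearman's rho 0.55, and 58 of 86 (67.4%) had the same sign, against 0.52, 0.38 and 64.5% over all genes.

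The TG and WT time differences share no library, but the points are genes of the same libraries and take up shifts of whole libraries, so these correlations are descriptions. Leaving out both libraries that stood apart, a choice made after seeing the data, 9 members were called over both genotypes, where 4.02% of genes were (324 higher and 95 lower, against 37 and 55 with all libraries) and the median of all genes was 0.09. Those higher were Klhl30 (0.94, limma adjusted p = 0.00126), Asb12 (0.65, 0.00171), Klhl31 (0.42, 0.00269), Klhl8 (0.41, 0.00898), Asb5 (0.40, 0.0200), Klhl13 (0.48, 0.0230) and Klhl40 (0.28, 0.0333), and those lower were Klhl33 (-0.57, 0.0280) and Asb15 (-0.46, 0.0355). With median-of-ratios scaling of the same libraries Klhl40, at 0.18 (limma adjusted p = 0.170), and Asb5, at 0.29 (limma adjusted p = 0.101), were no longer called and the other 7 were. Within TG 3 members were then called (Asb12, Klhl30 and Klhl31), where 0.682% of genes were, and within WT 2 (Asb12 and Klhl30), where 0.701% were. Leaving out TG ZT12 replicate 1 alone gave 6 calls over both genotypes, where 1.51% of genes were called, and leaving out TG ZT12 replicate 2 alone gave 1, Klhl33, where 0.778% were. With median-of-ratios scaling and all libraries, 5 were called, where 1.96% of genes were: Asb12, Klhl30 and Klhl8 were higher at ZT12 and Klhl33 and Asb15 lower.

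Ube2l6, the E2 for the interferon-induced modifier ISG15, had the widest spread of all members, its highest library being 9.98 times its lowest. It was picked after its values were seen. It had 8.36, 20.3 and 2.34 TPM in TG muscle and 8.47, 19.1 and 3.81 TPM in WT muscle at ZT12, against 2.03, 2.79 and 2.91 TPM in TG muscle and 2.07, 8.48 and 2.45 TPM in WT muscle at ZT0. Replicates 1 and 2 of both ZT12 groups and WT ZT0 replicate 2 were high, and the time difference was 1.18 (SE 0.46, limma adjusted p = 0.542). Red cell markers, of which 5 of 6 were in the table, summed to 2959, 4565 and 145 TPM in TG muscle and 1526, 4257 and 176 TPM in WT muscle at ZT12, against 110, 150 and 156 TPM in TG muscle and 137, 86.2 and 163 TPM in WT muscle at ZT0. Among the ZT12 libraries those high in red cell markers were those high in Ube2l6, but WT ZT0 replicate 2 was low in them. Isg15 was at 7.46 TPM in that library and between 1.09 and 5.56 TPM in the others. Ube2o, which clears ribosomal proteins from maturing red cells, had 3.35, 10.4 and 6.30 TPM in TG muscle and 6.06, 7.99 and 4.39 TPM in WT muscle at ZT12, against 6.05, 5.80 and 4.92 TPM in TG muscle and 5.69, 8.22 and 4.99 TPM in WT muscle at ZT0, so the times overlapped. The part of red cells in these values was not tested.

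**Figure D4:**
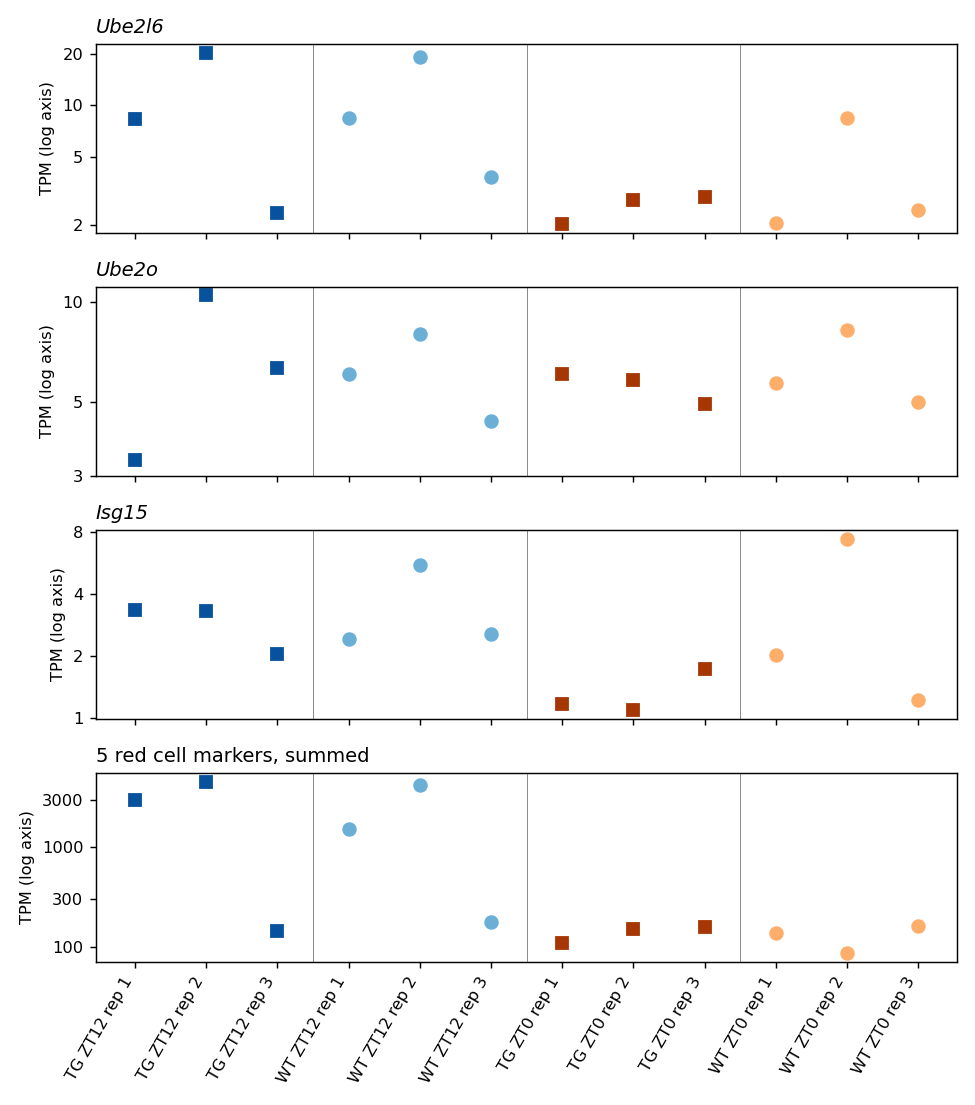
TPM of Ube2l6, Ube2o and Isg15 and of the 5 listed red cell markers summed, in each library by group, on a log axis. Ube2l6 reached 20.3 TPM in TG muscle and 19.1 TPM in WT muscle at ZT12, in the libraries where the red cell sum was 4565 and 4257 TPM.

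The transgene comparison asked whether E4BP4 in the liver goes with other levels of these genes in muscle. No member was called by limma between TG and WT over both times, at ZT12 or at ZT0, and of the 10415 genes tested 0.0% were called in each. No member reached an unadjusted p under 0.05 either, where 1.28%, 0.951% and 1.12% of genes did, and limma-voom on recovered reads called none. Without both libraries that stood apart no member was called either, where 0.0192% of genes were at ZT12. The median TG minus WT difference of the members over both times was -0.07, against -0.09 for all genes. With median-of-ratios scaling the members' median turned to 0.03, against -0.00 for all genes, so its sign depended on the scaling. The typical 95% interval reached 0.26 either side for a member over both times, and 0.37 at a single time.

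Cul3 differed by -0.03 over both times (SE 0.13, 95% interval -0.31 to 0.24) and Cul5 by -0.02 (SE 0.13, -0.30 to 0.26), and 1 of 7 cullins was above 0. Without both libraries that stood apart each was at 0.11. Klhl41 averaged 198 ± 25.3 TPM in TG muscle and 197 ± 11.5 TPM in WT muscle (SD, n = 6 each), with a difference of 0.00 and a 95% interval of -0.18 to 0.18, and without both libraries the difference was 0.07. Of the 9 muscle-rich Klhl and Kbtbd genes 2 were above 0, with a median of -0.05, and of the 9 muscle-rich Asb genes 6 were, with a median of 0.06. Asb2 averaged 304 ± 55.2 TPM in TG muscle and 279 ± 12.1 TPM in WT muscle, a difference of 0.10 (SE 0.12, 95% interval -0.15 to 0.36), or 0.24 without both libraries (SE 0.05, limma adjusted p = 0.623). All 22 other Klhl and Kbtbd genes were below 0, at a median of -0.10, close to the all-gene median of -0.09. These signs turned with the scaling: with median-of-ratios scaling 5 of 7 cullins, 7 of 9 muscle-rich Klhl and Kbtbd genes, 7 of 9 muscle-rich Asb genes and 9 of 22 other Klhl and Kbtbd genes were above 0. Without both libraries that stood apart all 7 cullins were above 0 (median 0.11), as were 17 of the 22 other Klhl and Kbtbd genes, and the median of all genes was 0.03. The muscle-rich Asb median was above 0 in each of these settings, at 0.16 and 0.14, with no member called. Of all 10415 genes tested, 1689 were above 0 with the settings reported, 5116 with median-of-ratios scaling and 6546 without both libraries.

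**Figure D5:**
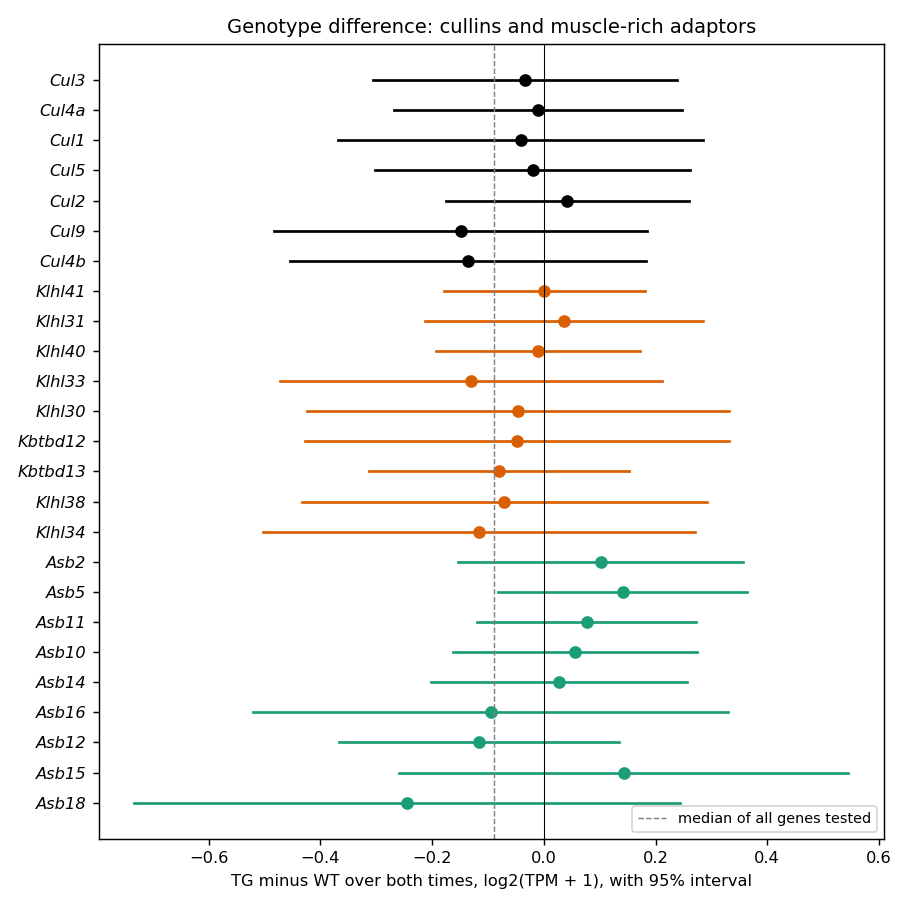
TG minus WT difference over both times (log2(TPM + 1) scale, point) with its 95% interval (bar) for the 7 cullins and the 18 muscle-rich adaptors. The dashed line is the median of all genes, -0.09, and every interval includes 0.

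Of the members with the smallest p-values, none came near the threshold after adjustment. Over both times the smallest p was that of Ube2e3, an E2 for several RING ligases, with 15.6 ± 1.62 TPM in TG muscle and 17.4 ± 0.419 TPM in WT muscle (SD, n = 6 each), a difference of -0.16 (SE 0.08, limma adjusted p = 0.945). Next came Klhl2 (-0.26), an adaptor for WNK kinases, Ube2t (-0.23), the E2 of the Fanconi anaemia pathway, Ube2s (0.20), which extends lysine-11 chains, and Ube2z (-0.23), which is charged by the E1 Uba6. Without both libraries that stood apart Klhl2 was at -0.04 and Ube2z at -0.01, and the other 3 moved by less than 1.5 times. At ZT0 the smallest p was that of Ube2t, with 2.71, 1.68 and 2.12 TPM in TG muscle, against 3.42, 3.41 and 2.76 TPM in WT muscle, without overlap (-0.41, SE 0.20, limma adjusted p = 0.998). Klhl2 differed by -0.44, Ube2s by 0.32 and Ube2e2 by 0.25 at ZT0, and Klhl2 by -0.19 without WT ZT0 replicate 2, where it had 5.18 TPM against 2.60 and 2.71 TPM in the other WT libraries. Asb11 had 65.7, 75.2 and 63.5 TPM in TG muscle, against 62.0, 54.0 and 59.8 TPM in WT muscle, all 3 TG libraries being above the WT ones (0.21, SE 0.13).

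At ZT12 the smallest p was that of Kbtbd13, with 5.98, 9.16 and 8.76 TPM in TG muscle, against 10.7, 9.61 and 8.93 TPM in WT muscle (-0.28, SE 0.15, limma adjusted p = 0.9997). The lowest TG value came from replicate 1, which was low for most members, and without it the difference was -0.10. Klhl13 had 1.32, 2.08 and 2.23 TPM in TG muscle, against 2.44, 2.47 and 2.76 TPM in WT muscle, without overlap (-0.32, SE 0.18). Klhl34 differed by -0.34, Asb5 by 0.19 and Ube2d1 by -0.13. Without TG ZT12 replicate 1 Klhl13 was at -0.17 and Asb5 at 0.32. Every TG library at ZT12 had fewer reads than every WT library, so genotype and depth cannot be told apart there. With depth as a covariate, the median TG minus WT difference at ZT12 was 0.12 for the members and 0.14 for all genes. With the settings reported these medians were -0.08 and -0.07. Groups at ZT12 did not overlap for 4 members, all lower in TG and Klhl13, Ube2a and Ube2e3 among them, where 4.26% of genes were lower in this way, and for none higher (0.528%). At ZT0 they did not overlap for 5 members higher in TG (Asb11, Kbtbd13, Klhl31, Ube2e2 and Ube2n), where 1.4% of genes were, and for 1 lower, Ube2t (3.22%). Apart from those named for their p, these were picked after their values were seen.

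No member had a time difference that differed between TG and WT by limma (0.0% of genes called, and no member but 0.663% of genes at an unadjusted p under 0.05). The smallest p was again that of Kbtbd13. It had 5.98, 9.16 and 8.76 TPM at ZT12, against 8.30, 8.37 and 8.21 TPM at ZT0 in TG muscle, and 10.7, 9.61 and 8.93 TPM at ZT12, against 7.18, 7.56 and 8.03 TPM at ZT0 in WT muscle, an interaction of -0.39 (SE 0.21). WT libraries were apart between the times and TG libraries overlapped, and without TG ZT12 replicate 1 the interaction was -0.22. It was -0.45 for Klhl13, -0.26 for Ube2d1, -0.30 for Ube2n, the E2 of lysine-63 chains, and -0.27 for Asb11. In the authors' deposited table none of the 86 members had a p under 0.05 between TG and WT at either time. The smallest in the authors' deposited table were 0.191 for Asb5 at ZT12 and 0.320 for Asb2 at ZT0, and the smallest adjusted p was 0.9999.

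The rest of the pathway was read from lists of partners, and no partner was called by limma in any of the 7 comparisons, where 0.0% of all genes were called between TG and WT or in the interaction, and 0.154%, 0.115% and 0.883% between times within TG, within WT and over both. These were 6 core ligase parts, 20 genes of the NEDD8 cycle and cullin exchange, 12 ubiquitin and E1 genes, 8 known substrates and partners of the muscle-rich adaptors and 17 other BTB and SOCS-box adaptors. Their median time differences over both genotypes were 0.03, 0.04, 0.01, -0.02 and -0.03. An unadjusted p under 0.05 was reached over both genotypes by 1 of the 20 NEDD8 cycle genes and 1 of the 12 ubiquitin and E1 genes (6.80% of all genes), and between TG and WT over both times by 1 of the 12 ubiquitin and E1 genes (1.28%). By level the linkers Skp1a (131 TPM) and Elob (69.3 TPM), the modifier Nedd8 (97.4 TPM) with the deneddylase subunit Cops5 (76.2 TPM), and the ubiquitin gene Ubb (120.4 TPM) led their lists. Desmin (Des) stood at 1076 TPM and nebulin (Neb) at 204 TPM, and of the other adaptors Spop at 109 TPM and Ivns1abp at 47.2 TPM.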

How the data were processed

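Muscle RNA was sequenced from poly(A) libraries made with an unstranded kit, per the labels' protocols. Per the submitters' processing notes the tools were HOMER 4.11.1, STAR, DESeq2 and bcl2fastq, on build mm10. The authors deposited TPM for 10475 genes in 12 libraries, all at 1 TPM or more in WT ZT0 replicate 1. The authors also deposited, for each time, log2 fold changes, p-values, transcript lengths (another kind of value) and log2 values per library under an FPKM header. The lengths were used here to recover reads: 98.6 to 98.8% of TPM values came out within 0.1 of a whole read, judged below 500 reads, and 1 read on 1 kb was worth 0.0411 to 0.0895 TPM. Those reads were used only for depth and for limma-voom. A further 25 matching symbols outside the TPM table were not analysed here.

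The 10415 genes that reached 1 TPM in 3 or more libraries, all 86 members included, were tested as log2(TPM + 1) with limma 3.58.1 in R 4.3.3, in a single model of all 12 libraries with a term per group. Calls are at a Benjamini-Hochberg adjusted p under 0.05 over all genes. Fold changes on this scale understate those of low genes. Summaries and figures used Python 3.11.15, numpy 2.4.6, pandas 2.3.3, scipy 1.17.1 and matplotlib 3.10.9. The fit was run on simulated data with independent noise per gene and library. That simulation held no whole-library shifts or depth differences, so it does not test the fit under those. Members and lists were chosen with earlier results of these data known. By rule, the genes named were members called and the 5 of smallest p in each of the 7 comparisons. The 3 highest of each subgroup and the 2 highest of each partner list were named too. Any others were picked outside these rules with their values known. This is not said at every such gene (Cul5, Ube2d3, Ube2o and Isg15, for example). Results for a few genes that these rules name are not reported here. Nothing in the labels says that libraries came from separate animals, so p-values measure only the spread between libraries. Alternatives covered scaling, filter, pseudocount, a replicate block, depth, limma-voom, each pair of groups alone and left-out libraries.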

Additional observations from a re-analysis of the deposited data

How the results depend on the processing

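Counts of members called in the TG and WT comparisons and the interaction were 0 under every alternative run. Those over both genotypes for ZT12 against ZT0, 1 with the settings reported, moved with the settings. The share of all genes called, 0.883% with the settings reported, is given beside each. They were 5 with median-of-ratios scaling (1.96%), 5 with upper-quartile scaling (1.84%) and 5 with limma-voom (1.86%), 4 with quantile scaling (1.86%; chosen after seeing the data), 2 with a 5 TPM filter (1.34% of 6504 genes), 0 with a pseudocount of 0.1 (0.807%) or 5 (0.778%), and 0 with depth as a covariate (0.0192%), where the all-gene median shifted to -0.38. Leaving out both libraries that stood apart (chosen after seeing the data) gave 9 (4.02%), or 7 with median-of-ratios scaling (3.9%). Leaving out 1 library gave 0 to 6 (0.451% to 1.51%). Within WT the count was 2 with median-of-ratios or upper-quartile scaling, 2 without both libraries, 4 with both changes, and 0 to 1 with 1 library left out. Within TG it was 3 without both libraries, 2 with median-of-ratios scaling as well, and 0 with any 1 library left out. Taken over all genes tested, libraries of the same replicate number were little more alike than others. Over 18 same-numbered pairs the deviations correlated at -0.35 to 0.29, with a median of 0.06, against -0.02 for pairs of different number. The closest library bore the same number for 5 of 12. Red cell markers and Ube2l6, however, were high in replicates 1 and 2 and low in replicate 3 of both genotypes at ZT12. Whether the numbers mark a shared factor was not tested further. With the replicate block 2 members were called over both genotypes, Asb12 and Klhl33, where 0.922% of genes were. A depth covariate turned 2 named differences: Ube2z between TG and WT over both times, to 0.0305, and Klhl13 between times in WT, to -0.0407. The causes were not tested. Depth limits low members most, where 1 read is a larger part of the level.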
